A study of Homo sapiens with 9 samples.

Results

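MHC class I antigen presentation is described here through 9 genes chosen by name. They are the heavy chain genes HLA-B, HLA-C, HLA-E and HLA-F, the light chain gene B2M, the peptide transporter genes TAP1 and TAP2, the tapasin gene TAPBP and the transactivator gene NLRC5. The deposited counts hold 64253 gene identifiers, of which 16561 passed a filter on low counts, and 4 of the 9 genes passed it: HLA-B, HLA-C, B2M and NLRC5. RNA was sequenced from IMR90 cells, a line of human lung fibroblasts with a limited lifespan, in 3 groups of 3 libraries lettered a, b and c. Every group was grown at 2% oxygen, was used at population doubling 30, received 2 lentiviral infections 24 hours apart and was kept in 3 ug/mL puromycin for 7 days. The control group carried the pLKO.1 vector, which the sample labels call empty and the treatment protocol describes as a GFP vector. Cells of the shRRM2 group expressed a hairpin to RRM2, which encodes a subunit of ribonucleotide reductase, the enzyme of dNTP synthesis. Cells of the shRRM2/shp16 group expressed this hairpin and a second one to p16, a product of CDKN2A that inhibits cell cycle kinases. There was no group with the p16 hairpin alone, and every cell carried at least 1 vector. The labels do not say whether replicates came from separate infections or dishes, so p-values measure only the spread between these libraries, which may be technical.

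A class I molecule is a heavy chain bound to beta-2 microglobulin, the B2M product, and to a short peptide cut from cytosolic proteins by the proteasome. TAP1 and TAP2 carry peptides into the endoplasmic reticulum, and tapasin bridges the transporter to the heavy chain while peptide is loaded. NLRC5 does not bind DNA by itself and raises class I transcription together with RFX, CREB/ATF and NF-Y factors on the promoter. Interferons and NF-kB raise the same genes through separate upstream elements. Fibroblasts, like nearly all nucleated cells, carry class I on their surface.

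The promoters of HLA-B, HLA-C and B2M are shown because the RNA of these genes was compared between the groups. Each line gives the 250 bases before the RefSeq start on GRCh38.p14, read 5′ to 3′ on the gene's strand. They lie at chr6:31357180-31357429 on the minus strand for HLA-B, at chr6:31272093-31272342 on the minus strand for HLA-C and at chr15:44711267-44711516 on the plus strand for B2M. Capitals mark matches on either strand to AANNGAAA, the core of an interferon response element, to TGACG, which is contained in CREB/ATF sites, and to CCAAT, the NF-Y box.
HLA-B: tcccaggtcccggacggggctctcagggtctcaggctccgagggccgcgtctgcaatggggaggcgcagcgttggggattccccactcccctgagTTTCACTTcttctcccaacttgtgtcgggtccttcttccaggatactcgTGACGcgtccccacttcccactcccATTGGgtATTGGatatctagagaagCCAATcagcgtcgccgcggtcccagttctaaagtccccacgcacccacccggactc
HLA-C: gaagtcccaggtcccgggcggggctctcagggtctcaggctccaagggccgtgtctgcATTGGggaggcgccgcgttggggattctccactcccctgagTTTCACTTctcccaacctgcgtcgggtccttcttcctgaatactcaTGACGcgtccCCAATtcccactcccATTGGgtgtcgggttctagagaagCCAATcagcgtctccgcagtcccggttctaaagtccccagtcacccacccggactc
B2M: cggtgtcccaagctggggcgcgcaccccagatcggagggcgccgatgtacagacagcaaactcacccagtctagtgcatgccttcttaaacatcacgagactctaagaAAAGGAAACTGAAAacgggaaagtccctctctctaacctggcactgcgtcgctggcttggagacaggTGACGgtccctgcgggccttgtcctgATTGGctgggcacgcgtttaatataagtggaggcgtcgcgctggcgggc

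RefSeq windows were found for 7 of the 9 genes. Among these, HLA-B, HLA-C and B2M held each of the motifs and the other 4 lacked at least 1. As a description of how common the letters are, among 35116 RefSeq promoter windows of the same length, 20.3% held AANNGAAA, 21.2% held TGACG, 32.0% held CCAAT and 1.19% held all 3. In HLA-B the interferon core began 155 bases before the start and TGACG began at 106, and in HLA-C they began at 151 and 105. B2M held 2 overlapping AANNGAAA matches, which began 142 and 136 bases before the start and which appear as a single run of capitals, and its TGACG began at 75. In all 3 genes TGACG lay between the interferon core and the CCAAT nearest to the start, and HLA-C held a further CCAAT beyond its core, at 192. HLA-F held AANNGAAA and CCAAT but no TGACG in its window. TAP2 held 2 overlapping AANNGAAA matches and TGACG, TAPBP held 2 overlapping AANNGAAA matches, and the first window of TAP1 held 2 of them and a CCAAT. A match describes letters only and is not a measured binding site.

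**Figure D1:**
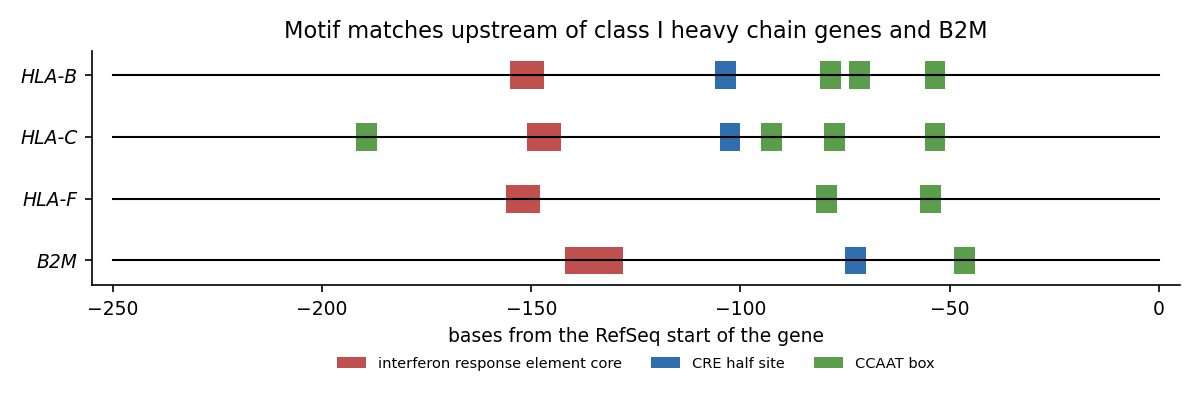
Positions of the 3 motifs in the 250 bases before the start of HLA-B, HLA-C, HLA-F and B2M, with distance from the RefSeq start in bases on the horizontal axis and a colour per motif. The first interferon core begins 142 to 156 bases before the start in these 4 genes, with a second one at 136 in B2M, and TGACG is present in HLA-B, HLA-C and B2M.

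How well each gene could be counted came before any comparison, because most of these genes carry several Ensembl identifiers in the count files. Nearly all further identifiers are absent from the primary annotation and name copies on alternative haplotypes of the genome. HTSeq sets aside a read that aligns to more than 1 place, and such alignments made up 43.2% to 44.3% of all tallied entries in control, 40.3% to 43.0% in shRRM2 and 43.9% to 44.9% in shRRM2/shp16. The part of this difference in the values below was not tested. HLA-E had 7 identifiers and 0 counts in all 9 libraries. A count of 0 allows up to 3 counts in a library, or 0.126 to 0.19 CPM (counts scaled to library size), and that limit covers counting error only and not the reads set aside. HLA-F had 7 identifiers with 7 counts in total, TAP1 had 8 identifiers with 1 count, and TAP2 had 9 identifiers with 9 counts. TAPBP had 5 identifiers with 84 counts, or 3 to 15 per library. These 5 genes were too thinly counted to compare, and their low counts cannot be read as low expression.

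Low counts of this kind ran through the region around them. On chromosome 6, 156 protein-coding genes had 5 or more identifiers, all between positions 28903002 and 33323016 (GENCODE release 29, GRCh38), and 8 of them (5.13%) passed the filter with their primary identifier and 16 (10.3%) with any identifier, the rule nearer to the one used for the 9 genes. Of the 852 protein-coding genes of that chromosome with 1 identifier, 596 (70.0%) passed. RPS18, a ribosomal protein gene chosen after the data were seen because every growing cell uses it, had 6 identifiers and 0 counts. RPL35A, another ribosomal protein gene chosen at the same time, has 1 identifier and 56699 counts. Of the other genes checked with them, BAG6 with 7 identifiers had 7 counts and FLOT1 with 8 had 6. TUBB, also with 8 identifiers, had 3239 counts, so several identifiers did not always remove the counts. EEF1A1, with 1 identifier, had 522014.

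The 4 counted genes differed in how their counted reads were spread over identifiers. NLRC5 (ENSG00000140853, chr16:56989485-57083531, plus strand) had 1 identifier with 3761 counts over the 9 libraries, and the genes annotated on the opposite strand within its span had 0. B2M (ENSG00000166710, chr15:44711487-44718877, plus strand) had 4582 of its 4584 counts on 1 of 2 identifiers. The other is not in the primary annotation. Reads that align to both copies are set aside, and how many B2M reads this removed is not known. HLA-C had 7 identifiers, and 99.8% of its 16462 counts fell on ENSG00000225691, which is not in the primary annotation, while the primary copy ENSG00000204525 (chr6:31268749-31272130, minus strand) had 9. HLA-B had 6 identifiers, and the primary copy ENSG00000234745 (chr6:31269491-31357188, minus strand) held 2936 of 6604 counts, or 44.5%. The annotated spans of these primary HLA-B and HLA-C copies overlap in part in that release, and how HLA-B and HLA-C reads split is uncertain. Values below are for the identifier with the most counts unless stated. Bulk RNA cannot tell fewer cells with a transcript from less transcript per cell.

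**Figure D2:**
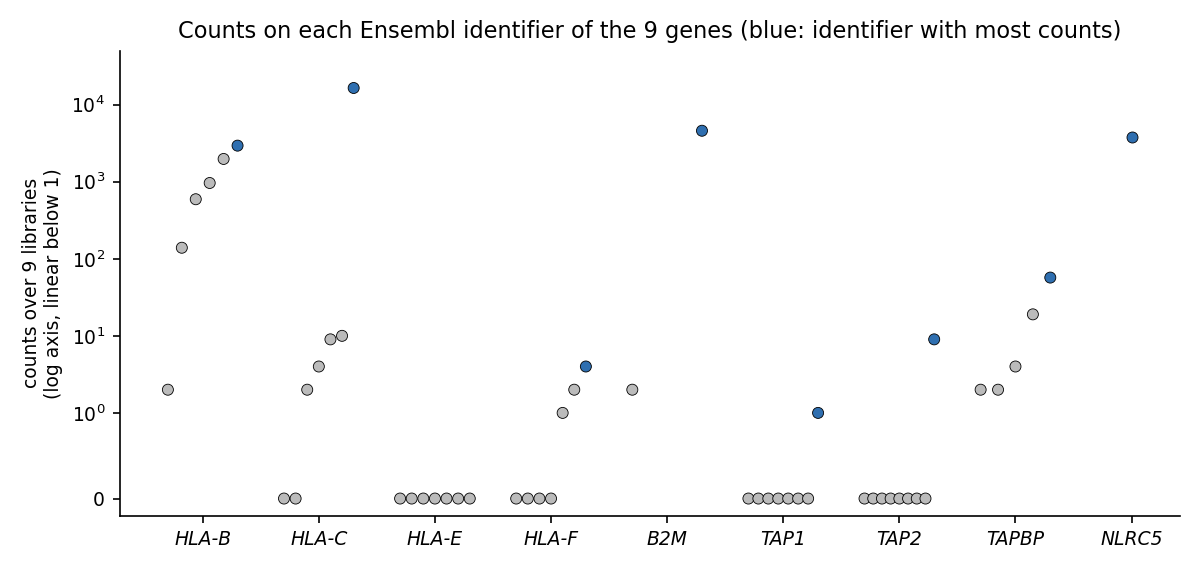
Counts summed over the 9 libraries for every Ensembl identifier of the 9 genes, on an axis that is logarithmic above 1. HLA-C, B2M and NLRC5 have nearly all counts on 1 identifier, HLA-B has them spread over 5, and HLA-E has 0 on all 7.

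The library groups were first set against their hairpins and their cell type. Gene counts per library ran from 15770895 to 24873291. RRM2 stood at 485 ± 5.23 CPM in control, 62.1 ± 1.86 in shRRM2 and 177 ± 3.00 in shRRM2/shp16 (mean ± SD, n = 3). It was thus 2.85-fold higher in shRRM2/shp16 than in shRRM2. These groups differ in RRM2 level as well as in the p16 hairpin, and the part of each in the values below was not tested. CDKN2A stood at 6.02 ± 0.113, 6.50 ± 0.464 and 4.28 ± 0.321 CPM, a log2 fold change of -0.60 ± 0.13 (SE) for shRRM2/shp16 against shRRM2 (edgeR quasi-likelihood test, Benjamini-Hochberg adjusted p = 7e-05). The 9 fibroblast markers summed to 22200 to 27800 CPM in all libraries, with the lowest values, 22200 to 22800, in shRRM2/shp16. Single markers moved apart under this sum. For shRRM2/shp16 against control 3 were higher and 5 lower, where 30.0% and 32.4% of all tested genes were. COL3A1 went from 1720 ± 22.1 to 3630 ± 50.8 CPM, and VIM from 5330 ± 181 to 2140 ± 48.4 CPM. The 8 leukocyte markers summed to 3.52 to 6.08 CPM, and 3 of them had 0 counts everywhere. The 5 epithelial markers summed to 1.26 to 2.69 CPM, with 2 of them at 0 everywhere. The 5 endothelial markers summed to 65.3 to 73.0 CPM in control and shRRM2 and to 115 to 124 in shRRM2/shp16, where TEK alone gave 115 ± 5.02 CPM. None of the 5 endothelial markers was at 0 in all libraries, and 1, the junction gene CDH5, had at most 3 counts in every library. The endothelial sum was highest in the same group as HLA-B, HLA-C and B2M, and its part in their values was not tested.

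HLA-B was higher in shRRM2/shp16 than in either other group, and HLA-C and B2M rose in smaller steps over the 3 groups. NLRC5, whose product activates class I promoters, moved the other way in shRRM2/shp16. All 4 genes passed the test in all 3 comparisons, where 60.9% of tested genes passed for shRRM2 against control, 61.1% for shRRM2/shp16 against shRRM2 and 62.4% for shRRM2/shp16 against control. Passing the test was therefore common in these data, and sizes and directions are what the values below describe. The 3 comparisons share libraries with each other, so their values are given side by side and are not independent.

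The HLA-B heavy chain presents peptides to CD8 T cells. Its RNA measured 14.8, 14.1 and 13.6 CPM in control libraries a, b and c. In shRRM2 it measured 11.2, 12.0 and 11.1 CPM, and in shRRM2/shp16 it measured 27.4, 25.9 and 26.1 CPM. All shRRM2 libraries lay below all control libraries, all shRRM2/shp16 libraries lay above both, and no groups overlapped. HLA-B was 2.32-fold higher in shRRM2/shp16 than in shRRM2, a log2 fold change of 1.21 ± 0.07 (SE, adjusted p = 2.2e-18, edgeR). Against control it was 1.86-fold higher in shRRM2/shp16 (0.89 ± 0.07 on the log2 scale, adjusted p = 3.9e-15). In shRRM2 it fell to 0.802 of the control level (-0.32 ± 0.08, adjusted p = 0.00097).

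The 5 HLA-B identifiers that passed the filter are copies of the same gene counted in the same 9 libraries. Their values describe the spread between copies and are not a separate check of the group difference. For shRRM2/shp16 against shRRM2 all 5 were higher, with log2 fold changes of 0.82 to 1.72, and against control all 5 were higher by 0.89 to 1.49. For shRRM2 against control 2 of 5 were lower and the range was -0.69 to 0.66, with the other 3 not passing the test. The identifier at the low end, ENSG00000232126, fell by 0.69 ± 0.12 on the log2 scale (adjusted p = 2.9e-06), and the one at the high end, ENSG00000228964, had 139 counts in all and a value of 0.66 ± 0.36 (adjusted p = 0.11). With all 6 identifiers summed, HLA-B measured 30.9 ± 0.854, 24.6 ± 0.782 and 61.6 ± 1.68 CPM in control, shRRM2 and shRRM2/shp16 (n = 3). The summed change was 1.32 ± 0.05 on the log2 scale for shRRM2/shp16 against shRRM2 (adjusted p = 3.5e-25) and -0.33 ± 0.06 for shRRM2 against control (adjusted p = 5.2e-06).

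HLA-C is the heavy chain that is also the main ligand of killer cell immunoglobulin-like receptors on natural killer cells. It measured 87.0, 83.7 and 87.3 CPM in control, 92.1, 96.6 and 91.6 CPM in shRRM2 and 118, 113 and 117 CPM in shRRM2/shp16. The 3 groups stepped upward without overlap. The step from shRRM2 to shRRM2/shp16 was 1.24-fold (log2 0.31 ± 0.04, adjusted p = 1.5e-09), and the whole distance from control was 1.35-fold (log2 0.43 ± 0.04, adjusted p = 1.2e-13). The step from control to shRRM2 was 1.09-fold (log2 0.12 ± 0.04, adjusted p = 0.0075). With no filter on low counts that smallest step was 0.079 on the log2 scale and no longer passed (adjusted p = 0.155).

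B2M, the light chain that all class I heavy chains here pair with, followed the order of HLA-C. It measured 20.4, 23.5 and 22.3 CPM in control, 26.4, 27.5 and 25.5 CPM in shRRM2 and 32.2, 33.0 and 37.1 CPM in shRRM2/shp16. Each group lay wholly above the one before it. B2M was 1.20-fold higher in shRRM2 than in control (log2 0.27 ± 0.07, adjusted p = 0.00088). It was 1.29-fold higher in shRRM2/shp16 than in shRRM2 (log2 0.37 ± 0.06, adjusted p = 3.8e-06) and 1.55-fold higher than in control (log2 0.63 ± 0.06, adjusted p = 1.3e-11). Whether the steps of HLA-B, HLA-C and B2M differ in size from each other was not tested.

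NLRC5 measured 23.2, 22.8 and 21.8 CPM in control, 30.2, 28.5 and 27.7 CPM in shRRM2 and 17.4, 16.4 and 17.4 CPM in shRRM2/shp16. It was highest in all shRRM2 libraries and lowest in all shRRM2/shp16 libraries, with no overlap between groups. NLRC5 rose 1.27-fold in shRRM2 over control (log2 0.35 ± 0.06, adjusted p = 8.6e-06). In shRRM2/shp16 it fell to 0.592 of the shRRM2 level (log2 -0.76 ± 0.07, adjusted p = 2.2e-13) and to 0.752 of the control level (log2 -0.41 ± 0.07, adjusted p = 1.1e-06). HLA-B thus had its lowest and highest group where NLRC5 had its highest and lowest, while HLA-C and B2M were higher than control in both hairpin groups. The fall against control did not pass with limma on all the deposited log2 RPKM columns (adjusted p = 0.0829), and it passed without the shRRM2 replicate c column, which does not match its count file (adjusted p = 0.00796).

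**Figure D3:**
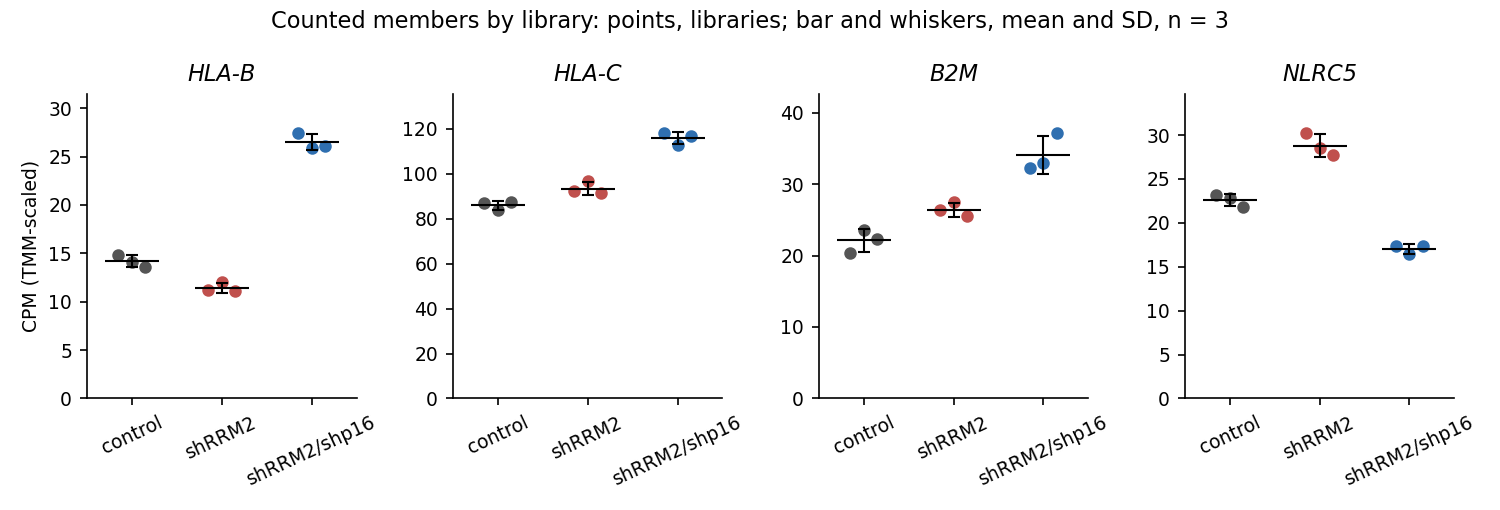
CPM of HLA-B, HLA-C, B2M and NLRC5 in each of the 9 libraries, with the mean and SD of each group of 3. Within each gene the groups do not overlap, and NLRC5 is lowest in shRRM2/shp16 (17.0 ± 0.571 CPM) where HLA-B is highest (26.5 ± 0.832 CPM).

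**Figure D4:**
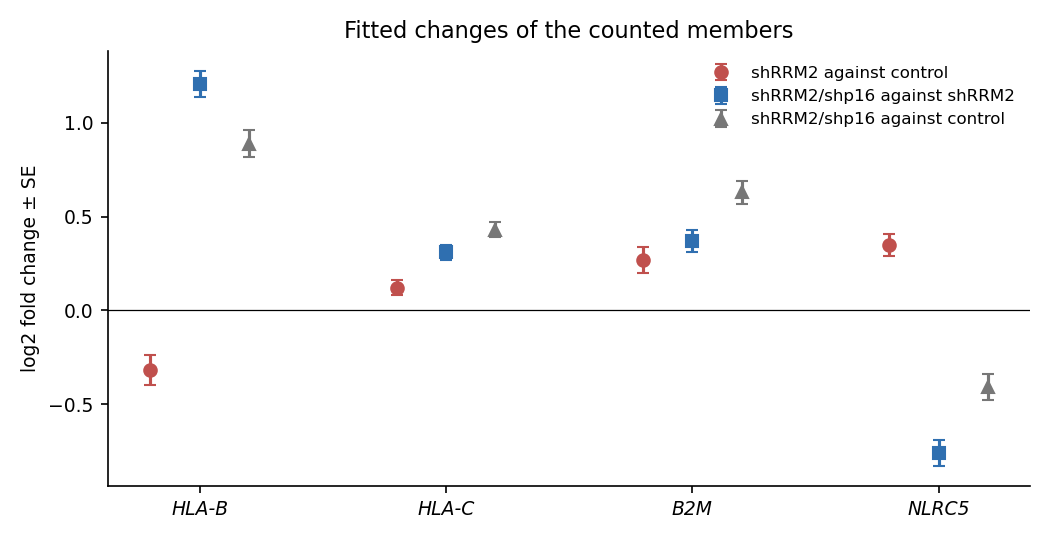
Fitted log2 fold changes with standard errors for the 4 counted genes in the 3 comparisons, from edgeR. HLA-B has the highest value, 1.21 for shRRM2/shp16 against shRRM2, and NLRC5 the lowest, -0.76 in the same comparison.

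The groups did not overlap in CPM in 12 of 12 gene and comparison pairs, where 63.6%, 64.7% and 66.2% of all tested genes did not overlap in the comparisons of shRRM2 with control, shRRM2/shp16 with shRRM2 and shRRM2/shp16 with control. The sizes ran from small to large against the other genes, whose median absolute log2 fold change was 0.32, 0.32 and 0.343 in those comparisons. The HLA-C values of 0.12 and 0.31 lay below that median and its 0.43 for shRRM2/shp16 against control lay above it. For shRRM2 against control, the HLA-B value of -0.32 lay at the median in size and the B2M value of 0.27 below it. The other values of HLA-B, B2M and NLRC5 lay above it in size, among them 1.21 for HLA-B and -0.76 for NLRC5.

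Levels of different genes were compared per length, as RPKM (CPM divided by length in kilobases), with the gene lengths implied by the authors' table. HLA-C had the highest counted level, 33.5 ± 0.766 RPKM in control, 36.4 ± 1.08 in shRRM2 and 45.1 ± 0.991 in shRRM2/shp16 (n = 3). B2M followed with 5.93 ± 0.423, 7.09 ± 0.265 and 9.15 ± 0.712 RPKM, then HLA-B with 4.71 ± 0.191, 3.79 ± 0.168 and 8.78 ± 0.276, and NLRC5 was lowest with 1.82 ± 0.058, 2.33 ± 0.103 and 1.38 ± 0.0461. In shRRM2/shp16 the B2M libraries, at 8.64 to 9.96 RPKM, overlapped those of HLA-B, at 8.60 to 9.10. The places of B2M, HLA-B and NLRC5 depend on the method. In the authors' per-length group values (FPKM) for the same identifiers, NLRC5 stood at 19.25 and HLA-B at 9.34 in shRRM2. In shRRM2/shp16 these values were 12.5 and 21.8. B2M stood there at 49.8 in shRRM2 and 63.8 in shRRM2/shp16, and HLA-C was again highest. With all HLA-B identifiers summed, HLA-B stood above B2M at 10.3, 8.18 and 20.5 RPKM, and with the longer exon length of GENCODE B2M stood at 3.63, 4.35 and 5.61 RPKM. Reads set aside as not unique are missing from each of these levels.

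For the same identifiers, the authors' deposited table reports a test between shRRM2/shp16 and shRRM2. In the authors' deposited table HLA-B had a log2 fold change of 1.22 (q = 0.000444), B2M of 0.357 (q = 0.000444) and NLRC5 of -0.62 (q = 0.00157). HLA-C had a log2 fold change of 0.28 in the authors' deposited table and did not pass there (q = 0.446). The direction of each gene is that of the edgeR fit, and HLA-C is the one whose call differs.

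Other genes of class I presentation and its regulation, together with class I-like, class II and interferon ligand genes, were taken from lists of 76 genes in all, of which 56 passed the filter on low counts. For shRRM2/shp16 against shRRM2, 32 of the 56 were higher and 10 lower, where 31.9% of all tested genes were higher and 29.1% lower. For shRRM2 against control, 18 were higher and 19 lower, where 29.0% and 31.8% of all tested genes were. For shRRM2/shp16 against control, 27 were higher and 11 lower, where 30.0% and 32.4% of all tested genes were. These shares of all tested genes also stand beside the counts of each single list below. CD1D, counted as higher in each comparison, passed the filter only through the hairpin groups. CXCL10, counted as higher in shRRM2/shp16 against either other group, passed it only through shRRM2/shp16. Their calls are not separate support. Of the 20 genes that did not pass the filter, 10 had several identifiers, among them PSMB8 and PSMB9, the inducible proteasome subunits encoded beside TAP1 and TAP2, with at most 1 count in a library.

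Of the immunoproteasome list, whose products change how peptides are cut, 3 of 5 genes were tested. Against shRRM2, 2 were higher in shRRM2/shp16 and none lower, with a median log2 fold change of 0.43. PSMB10, an inducible catalytic subunit, rose by 0.88 ± 0.18 on the log2 scale (adjusted p = 6.7e-05), and the proteasome activator subunit gene PSME1 by 0.43 ± 0.06 (adjusted p = 1.7e-07), while PSME2, its partner, had 0.07 ± 0.05 (adjusted p = 0.27). For shRRM2 against control, 2 of the 3 were lower, and PSME1 had the lowest value, -0.25 ± 0.06 (adjusted p = 0.001). Its groups overlapped there, and limma on all the log2 RPKM columns did not call it (adjusted p = 0.32). All 3 constitutive catalytic subunits, PSMB5, PSMB6 and PSMB7, were lower in shRRM2 than in control, by 0.35 on the log2 scale at most (PSMB7). With limma without the shRRM2 replicate c column PSMB5 and PSMB6 did not pass (adjusted p = 0.079 and 0.063). For shRRM2/shp16 against shRRM2 1 of the 3 was higher and 1 lower, and the sizes were at most 0.10. Both of those calls were lost in DESeq2 or without a library: PSMB7 had an adjusted p of 0.13 in DESeq2, and PSMB5 one of 0.19 without shRRM2/shp16 replicate c.

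The loading and trimming list holds 7 genes of the endoplasmic reticulum, all tested. In shRRM2/shp16 relative to shRRM2, 2 were higher and 3 lower (median log2 fold change -0.08), and for shRRM2 against control 2 were higher and 2 lower (median -0.06). TAPBPL, the tapasin-related protein that edits the bound peptide, stood at 3.08 ± 0.153, 2.86 ± 0.288 and 5.44 ± 0.272 CPM in control, shRRM2 and shRRM2/shp16, a rise of 0.92 ± 0.15 on the log2 scale against shRRM2 (adjusted p = 7.8e-07). ERAP2, an aminopeptidase that trims peptides, went the other way with 14.3 ± 1.38, 22.1 ± 0.757 and 13.7 ± 1.21 CPM, a change of -0.68 ± 0.08 against shRRM2 (adjusted p = 5.7e-10). ERAP2 thus had its highest group where NLRC5 had its own. PDIA3, a disulfide isomerase of the loading complex, had the lowest value of the list in shRRM2 against control, -0.16 ± 0.03 (adjusted p = 8.2e-06).

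The list of factors that bind class I promoters holds 14 genes, all tested. Between shRRM2 and shRRM2/shp16, 10 were higher in the latter and none lower, with a median log2 fold change of 0.49 where the median of all tested genes was 0.011. For shRRM2 against control, 3 were higher and 6 lower (median -0.15), and for shRRM2/shp16 against control 9 were higher and 2 lower (median 0.17). Some of these calls were fragile. The calls of NFKB1 as higher and IRF2 as lower in shRRM2 than in control were lost in DESeq2 (adjusted p = 0.062 and 0.072). The call of RFXANK, among the 9, was lost without control replicate c (log2 0.13, adjusted p = 0.1). RELB, an NF-kB subunit, stood at 8.12 ± 1.19, 11.7 ± 0.593 and 35.2 ± 0.456 CPM in control, shRRM2 and shRRM2/shp16, and the last step was 1.58 ± 0.08 on the log2 scale (adjusted p = 2.5e-22). NFYA, the DNA-contacting NF-Y subunit, fell by 0.58 ± 0.05 in shRRM2 against control (adjusted p = 2.1e-14) and rose by 0.71 ± 0.05 in shRRM2/shp16 against shRRM2 (adjusted p = 1.3e-17). RFX5, the RFX subunit that binds the X box, rose by 0.76 ± 0.07 from shRRM2 to shRRM2/shp16 (adjusted p = 1.3e-13). Its step from control to shRRM2 was -0.21 ± 0.07 (adjusted p = 0.0071), with control and shRRM2 libraries overlapping. Without control replicate a the step was -0.11 and did not pass (adjusted p = 0.2), nor did it with limma on all the log2 RPKM columns (adjusted p = 0.33). HLA-B and NFYA shared their lowest group, shRRM2. IRF1, an interferon-induced factor of the class I promoter, had -0.06 ± 0.08 in the step from control to shRRM2 (adjusted p = 0.5) and rose by 0.29 ± 0.08 from there to shRRM2/shp16 (adjusted p = 0.0011). NFYC had the lowest value for shRRM2/shp16 against shRRM2, -0.11 ± 0.06, and did not pass (adjusted p = 0.079).

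Interferon receptors with their signalling proteins and inhibitors make up a list of 12 genes, all tested. Relative to shRRM2, 10 were higher in shRRM2/shp16 and none lower (median log2 fold change 0.30). For shRRM2 against control, 4 were higher and 4 lower (median 0.01), and for shRRM2/shp16 against control 7 were higher and 2 lower (median 0.40). SOCS3, an inhibitor of cytokine receptor signalling, measured 59.4 ± 2.36, 31.0 ± 1.12 and 187 ± 5.05 CPM in control, shRRM2 and shRRM2/shp16. It fell by 0.94 ± 0.05 on the log2 scale in the first step and rose by 2.59 ± 0.04 in the last (adjusted p = 1.3e-20 and 3.3e-39). SOCS1, the inhibitor of interferon receptor kinases, fell by 1.23 ± 0.11 in shRRM2 against control (adjusted p = 1.1e-13). The call of SOCS1 as higher in shRRM2/shp16 than in shRRM2, counted among the 10, was lost without shRRM2 replicate c (log2 0.13, adjusted p = 0.35). The kinase gene TYK2, also among the 10, had 0.12 ± 0.05, and its groups overlapped. Its call was lost in DESeq2 (adjusted p = 0.095) and without shRRM2 replicate c (log2 0.09, adjusted p = 0.14). IFNGR2, a receptor chain with 2 identifiers and so uncertain, had the highest value for shRRM2 against control, 0.86 ± 0.23 (adjusted p = 0.0012). For shRRM2/shp16 against shRRM2 it had the lowest value of the list, -0.38 ± 0.22, and did not pass (adjusted p = 0.12).

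Genes that interferon gamma often induces together with class I make up a list of 10, of which 6 were tested. In shRRM2/shp16, 4 were higher than in shRRM2 and 1 lower (median log2 fold change 0.34), and for shRRM2 against control 3 were higher and 1 lower (median 0.02). SOCS1, whose lost call is given above, is among the 4. The call of WARS, among the 3, had a log2 fold change of 0.09 and was lost without shRRM2 replicate c (log2 0.06, adjusted p = 0.24). CXCL10, a chemokine for T cells, had 4, 2 and 0 counts in the control libraries and 4, 0 and 1 in shRRM2. In shRRM2/shp16 it had 46, 45 and 57. It is 1 of the 4 called higher, but it passed the filter on low counts only through shRRM2/shp16. Its call there is therefore not separate support, and its counts are given as a description. GBP1, a guanylate-binding protein of the interferon response, moved with NLRC5 instead, at 53.6 ± 1.47, 63.9 ± 2.92 and 35.5 ± 1.20 CPM, and fell by 0.85 ± 0.05 on the log2 scale in shRRM2/shp16 against shRRM2 (adjusted p = 3.3e-19). ICAM1, an adhesion molecule for T cells, rose by 2.55 ± 0.05 in shRRM2 against control (adjusted p = 1.6e-35) and had 0.08 ± 0.04 in the next step (adjusted p = 0.1).

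**Figure D5:**
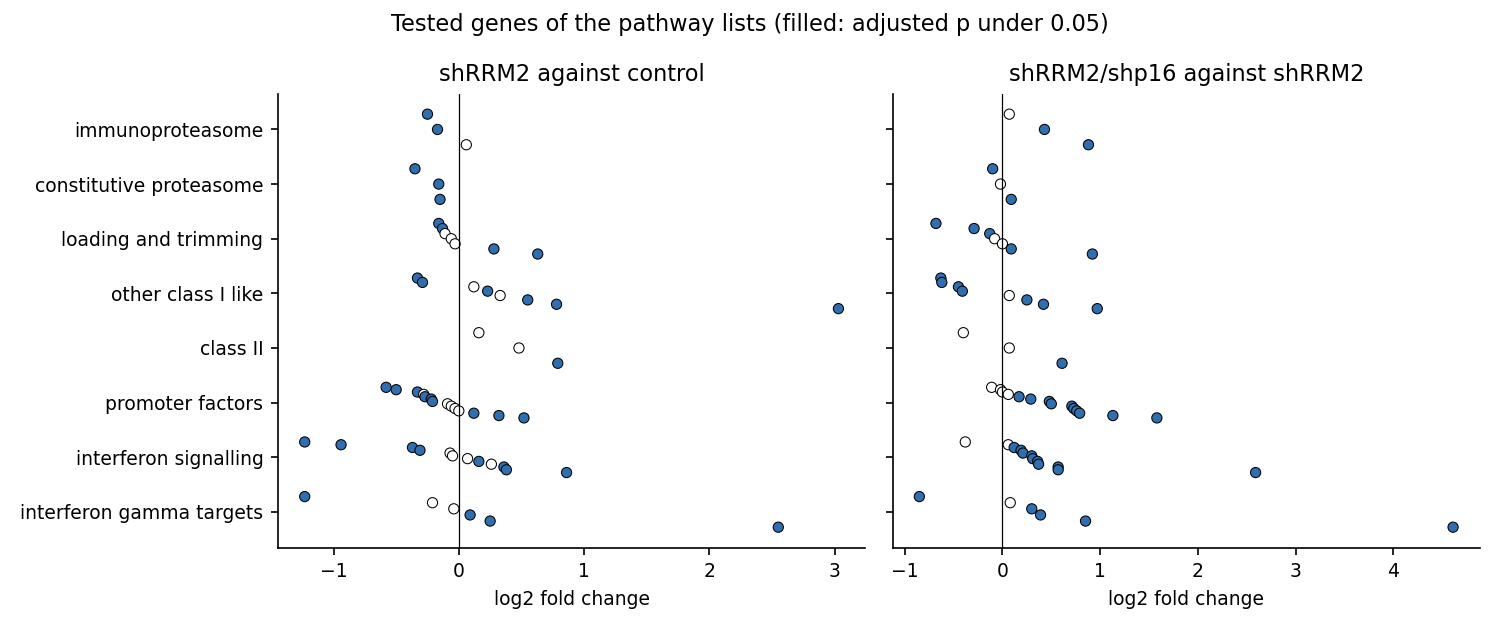
Fitted log2 fold changes of the tested genes of 8 pathway lists, with shRRM2 against control on the left, shRRM2/shp16 against shRRM2 on the right and a point per gene, filled where the adjusted p is under 0.05. In the right panel 10 of 14 promoter factors and 10 of 12 interferon signalling genes are higher and none is lower. Among the latter, the calls of SOCS1 and TYK2 were lost in DESeq2. Of all tested genes, 31.9% were higher and 29.1% lower in that comparison.

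The genes with the pattern most like a member were taken from 11283 tested genes with a symbol and a mean log2 CPM of at least 2, by Pearson r of log2 CPM over the 9 libraries. For HLA-B they were SEMA4C (r = 0.998), PTGES (r = 0.997) and PTGS1 (r = 0.997), and PTGES, a prostaglandin E synthase, stood at 13.7 ± 0.292, 7.76 ± 0.227 and 59.0 ± 1.82 CPM in control, shRRM2 and shRRM2/shp16. For B2M they were SOX6 (r = 0.981), FAM115A (r = 0.979) and JMY (r = 0.977). For NLRC5 they were ARF3 (r = 0.996), NFE2L3 (r = 0.994) and EPG5 (r = 0.994), and EPG5, a factor of autophagosome fusion, stood at 191 ± 4.72, 276 ± 4.31 and 129 ± 0.703 CPM. The points are 3 groups of 3 libraries, so each r describes mainly 3 group means.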

How the data were processed

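Total RNA of 9 IMR90 samples was depleted of ribosomal RNA and sequenced as stranded libraries, per the labels' protocols. The authors deposited raw read counts per Ensembl gene with HTSeq tally lines for each library, and a table that holds, per the file headers, log2 RPKM values, and FPKM group values, a log2 fold change, a test score, a p-value and a q-value from their comparison of shRRM2/shp16 with shRRM2. The submitters' processing notes name TopHat2 2.0.9, Cufflinks 2.0.2, Cuffdiff and GRCh38. The annotation release and strand setting are not given in the sources used here. The deposited log2 RPKM values are log2(x + 1) of small x, and 8 of 9 columns equal counts over a fixed length within 1%. In the column of shRRM2 replicate c, 5.3% of genes did. There were 0 sample columns that matched no sample.

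Tally lines were kept out of library sizes. For a symbol with several identifiers the one with most counts was kept. Counts were tested with edgeR 4.0.16 (R 4.3.3, filterByExpr, TMM, 1 quasi-likelihood fit of 9 libraries with 6 residual degrees of freedom, two-sided, Benjamini-Hochberg over 16561 genes, threshold 0.05). CPM are scaled by TMM. Values are mean ± SD with n = 3, and fold changes carry SEs. Genes with at most 3 counts in every library of a group were taken as at the floor. Named pathway genes are those with the highest and lowest log2 fold change of each list between shRRM2/shp16 and shRRM2 and between shRRM2 and control, with PSMB8, PSMB9, IRF1, RFX5 and a gene that is not reported here. Like genes were sought for HLA-B, B2M, NLRC5 and TAP1, and TAP1 was not tested. Members and lists were chosen with earlier results of these data known. Alternatives were RLE size factors, library totals, 2 filters, the 6 libraries compared, summed identifiers, a replicate block, leaving out each library, DESeq2 1.42.0 and limma 3.58.1 on the log2 RPKM values. Reads carry no molecular identifiers, so counting error understates the error. The pipeline was tested on simulated data.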

Additional observations from a re-analysis of the deposited data

How the results depend on the processing

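Of 192 alternative values for HLA-B, HLA-C, B2M and NLRC5 over the 3 comparisons, 190 kept their direction and stayed past the threshold. The exceptions were HLA-C in shRRM2 against control with no low-count filter and NLRC5 in shRRM2/shp16 against control with limma on all the log2 RPKM columns, whose values are given above. Limma without the shRRM2 replicate c column was chosen after seeing the data. Leaving out 1 library at a time, the log2 fold change for shRRM2/shp16 against shRRM2 ran from 1.19 to 1.25 for HLA-B, 0.30 to 0.34 for HLA-C, 0.31 to 0.41 for B2M and -0.78 to -0.72 for NLRC5. The number of genes past the threshold ran from 7515 to 10265 for shRRM2 against control, 8534 to 10315 for shRRM2/shp16 against shRRM2 and 9133 to 10583 for shRRM2/shp16 against control over all alternatives. With library totals and no TMM the median of all tested genes shifted by 0.104 on the log2 scale for shRRM2/shp16 against control, and 59.7% of called genes were higher in place of 48.1%. With limma on all the log2 RPKM columns the shares for shRRM2/shp16 against shRRM2 and against control were 62.4% and 59.5%, in place of 52.3% and 48.1%. Replicate letters did not pair the samples, with correlations of same-letter deviations of -0.02 to 0.049. A replicate block gave 10101, 10134 and 10388 genes past the threshold in the 3 comparisons, and HLA-B, HLA-C, B2M and NLRC5 kept all calls. HLA-E, HLA-F, TAP1, TAP2 and TAPBP had too few assigned reads to test, at library depths where genes with 1 identifier passed. With its 5 identifiers summed TAPBP passed the filter, and none of its 3 comparisons passed the test (log2 0.31 ± 0.47, 0.05 ± 0.44 and 0.37 ± 0.45, adjusted p = 0.58, 0.93 and 0.49).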

Other observations

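Outside the classical pathway, 8 of 10 class I-like genes were tested. For shRRM2 against control 4 were higher and 2 lower, and for shRRM2/shp16 against shRRM2 3 were higher and 4 lower. CD1D is counted as higher in both, but it passed the filter on low counts only through the hairpin groups, where it was high. Its calls are therefore not separate support, and its values are given as a description. CD1D, which presents lipids, had 3, 3 and 2 counts in control, 12, 26 and 21 in shRRM2 and 38, 43 and 51 in shRRM2/shp16. With control set to a floor of 3 counts per library, mean CPM was 7.34 times control in shRRM2 and 14.6 times control in shRRM2/shp16. These ratios leave out counting error and are not lower limits. The fitted rises over control were 3.03 ± 0.44 and 4.0 ± 0.38 on the log2 scale (SE). CD1D rose between the 2 hairpin groups by 0.97 ± 0.25 on the log2 scale (edgeR, adjusted p = 0.00077). ULBP2, a ligand of the natural killer cell receptor NKG2D, measured 3.71 ± 0.197, 6.37 ± 1.05 and 4.10 ± 0.451 CPM in control, shRRM2 and shRRM2/shp16 (n = 3). It rose by 0.78 ± 0.14 and then fell by 0.63 ± 0.14 (adjusted p = 7.4e-06 and 0.00013). ULBP3, another such ligand, fell by 0.33 ± 0.13 in shRRM2 against control (adjusted p = 0.029). That call was lost without shRRM2 replicate a (-0.23, adjusted p = 0.16) and in DESeq2 (adjusted p = 0.099).

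Of 9 class II genes 3 were tested. CIITA, the class II relative of NLRC5, stood at 0.934 ± 0.131 CPM in control and 1.63 ± 0.264 in shRRM2 (log2 0.79 ± 0.26, adjusted p = 0.0095), a call lost with limma on all the log2 RPKM columns (adjusted p = 0.19). CD74, the class II invariant chain, rose by 0.61 ± 0.21 in shRRM2/shp16 against shRRM2 (adjusted p = 0.012), and without shRRM2 replicate c it had 0.37 and did not pass (adjusted p = 0.14). Of 7 interferon ligand genes only IFNE passed the filter on low counts, with 2.47 ± 0.284, 8.70 ± 0.517 and 2.69 ± 0.473 CPM in control, shRRM2 and shRRM2/shp16. IFNE had its highest group where NLRC5 and ERAP2 had theirs, and it fell by 1.68 ± 0.14 on the log2 scale in shRRM2/shp16 against shRRM2 (adjusted p = 4e-14).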
